A study of Mus musculus with 2 samples.

Results

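The forkhead (Fox) family was examined in the lungs of newborn mice. Its members were taken as all protein-coding genes in both gene tables whose symbol is Fox followed by a subfamily letter from a to s and a number. The rule gave 44 members of 21474 protein-coding genes, in 19 subfamilies. Total RNA had been sequenced from 2 pups of strain B6NCrl at postnatal day 0, pup 1 and pup 3 of pregnancy 1, with the 2 lungs of a pup in each library and no treatment or genotype named. Sex was not recorded for either pup, and the labels give both libraries 1 donor identifier, so that n = 2 and each SD rest on the pup numbers. There is 1 group, so no condition could be compared, and no p-value is given: the smallest 2-sided p that 2 pups allow in an exact sign-flip permutation test is 0.5. In whole lung, fewer cells of a type and less RNA per cell cannot be told apart.

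Forkhead proteins bind DNA through a winged-helix domain, in which the recognition helix lies in the major groove. In the lung, Foxa1 and Foxa2 act in the epithelium, Foxj1 drives the formation of motile cilia, and Foxf1 is required in mesenchyme and endothelium for the growth of vessels downstream of Hedgehog signalling. Foxo proteins are kept out of the nucleus when phosphorylated by Akt, Foxm1 drives genes of cell division, and Foxp proteins are repressors that act as dimers.

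The codons of the recognition helix are shown because they group the members independently of their level. They were found in the coding sequence of 41 of the 44 members, all but Foxh1, Foxr1 and Foxr2. The 36 bases, 12 codons, are printed 5′ to 3′ on the coding strand for 8 members at a TPM (transcript abundance per length, scaled to a common library total) of 1 or more in both pups: Foxf1, its partner Foxf2, and the highest member of 6 other subfamilies. They were read from transcripts of GENCODE M21 on GRCm38 (mm10), and capitals mark bases that differ from Foxf1.
Foxf1: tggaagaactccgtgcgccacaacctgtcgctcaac
Foxf2: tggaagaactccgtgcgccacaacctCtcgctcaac
Foxn3: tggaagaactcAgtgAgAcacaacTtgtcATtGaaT
Foxq1: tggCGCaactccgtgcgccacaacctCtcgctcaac
Foxs1: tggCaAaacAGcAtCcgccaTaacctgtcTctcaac
Foxk2: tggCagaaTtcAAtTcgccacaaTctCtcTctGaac
Foxo3: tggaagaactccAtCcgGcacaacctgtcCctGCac
Foxm1: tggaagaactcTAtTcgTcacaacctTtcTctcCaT
The Foxf1 codons lie at chr8:121084672-121084707 on the plus strand and those of Foxf2 at chr13:31626509-31626544, also on the plus strand. Foxf2 differed from Foxf1 at 1 base and at no residue. Foxn3 differed at 8 bases and likewise at no residue.

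Members that encode the same helix differed widely in RNA level. Foxf1, Foxf2, Foxn1, Foxn2, Foxn3 and Foxn4 encoded the same 12 residues, and 4 of these 6 reached TPM 1 in both pups, with 251 TPM in sum in pup 1 and 293 in pup 3. The commonest helix, encoded by 16 members, was found in 4 at TPM 1 or more in both pups (Foxj1, Foxs1, Foxk1 and Foxk2), in 11 under TPM 1 in both, and in Foxl1. The Foxo members and Foxm1 shared a helix, as did Foxp1, Foxp2 and Foxp4, while Foxp3 encoded one of its own that differed from Foxf1 at 3 residues.

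TPM is a level per length and is comparable between genes. Of the 44 members, 20 (45.5%) lay at TPM 1 or more in both pups, below the 60.3% of all protein-coding genes that did. Under TPM 1 in both pups lay 23 members, beside 37.8% of protein-coding genes. Foxl1 alone crossed the line, at 0.71 TPM in pup 1 and 1.16 in pup 3. The median member had 0.60 TPM in pup 1 and 0.635 in pup 3, where the median protein-coding gene had 3.83 and 4.19. Among genes at TPM 1 or more in both pups the median was 8.93 and 10.3 TPM for members and 15.3 and 16.0 TPM for protein-coding genes.

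The family's TPM summed to 515 in pup 1 and 559 in pup 3 (537 ± 31.1, SD, n = 2), which is 0.0515% and 0.0559% of all TPM. The 3 highest members, Foxf1, Foxp1 and Foxn3, held 64.0% of that sum in pup 1 and 63.3% in pup 3. Without Foxf1 the sums were 378 and 388 TPM. The 23 members under TPM 1 together gave 2.55 and 2.96 TPM. Sox genes, counted by the same rule, reached TPM 1 in both pups for 11 of 19, T-box genes for 5 of 13 and Hox genes for 11 of 39. The highest member of each of these families was Sox18 (118 and 143 TPM), Tbx4 (42.8 and 40.9) and Hoxa5 (35.4 and 35.1). Foxf1 lay above Sox18 in each pup.

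**Figure D1:**
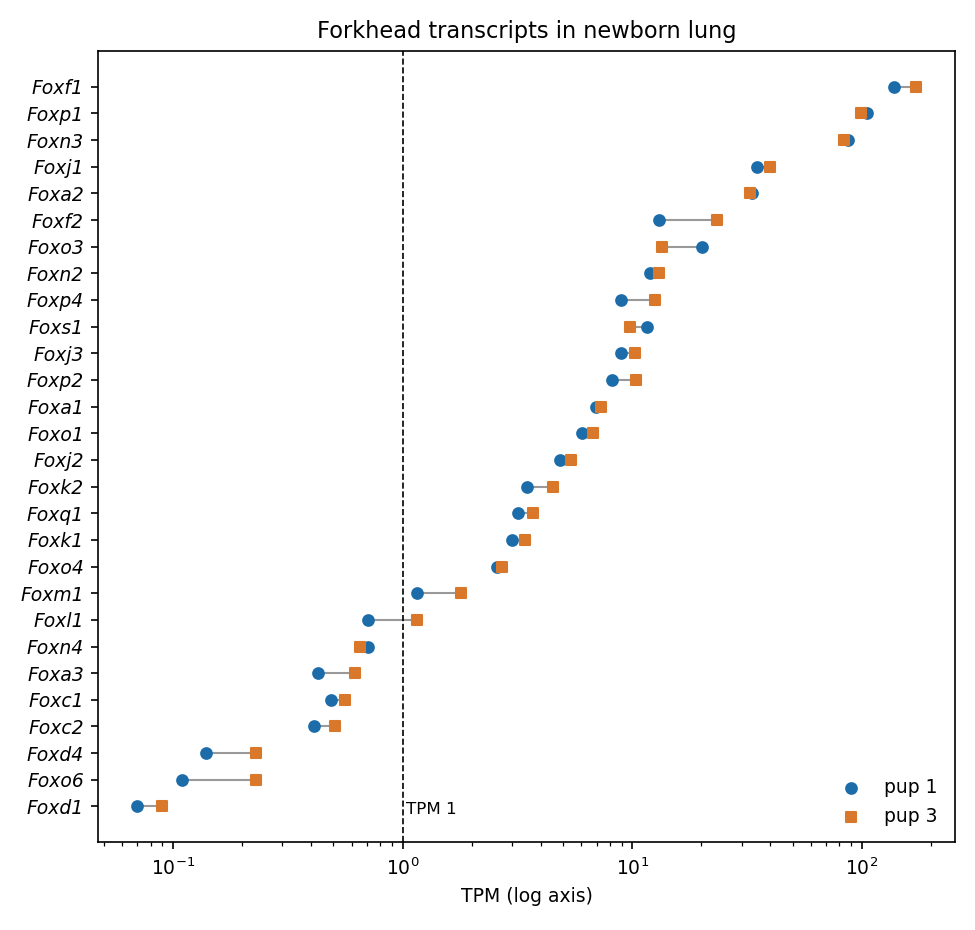
TPM of forkhead members in pup 1 (circles) and pup 3 (squares) on a log axis, for the 28 members at 0.05 TPM or more in both pups, with a dashed line at TPM 1 and a bar joining the pups. Foxf1 leads at 138 and 172 TPM, and Foxf2 and Foxo3 show the widest bars among the 8 members whose mean is above 12 TPM.

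Depth was 42189536 expected counts over genes in pup 1 and 37026165 in pup 3, of which 45602 and 42195 fell on the family. Expected counts split reads that fit several features, and 37 members had whole counts in both pups. Markers of lung epithelium (4 of 4), endothelium (4 of 4) and fibroblasts and pericytes (6 of 6) were at TPM 1 or more in both pups, with Sftpc at 77317 and 68981 TPM, Ramp2 at 742 and 679.5 TPM and Tcf21 at 671 and 625 TPM. Next in these lists were Epcam (117 and 113) and Cdh1 (77.6 and 93.5), Pecam1 (152 and 145) and Cdh5 (85.6 and 87.7), and Col1a1 (421 and 410.1) and Pdgfrb (35.7 and 33.7). Heart muscle markers were also present, 5 of 5, summing to 563 TPM in pup 1 and 646 in pup 3 and led by Myl7 (288 and 358 TPM), Actc1 (170.3 and 150.1) and Tnnt2 (74.3 and 102). Their part in the level of any member was not tested.

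Foxf1, which directs the mesenchyme and the capillary bed of the lung, was the highest member. Its counts were 10276 in pup 1 and 10937 in pup 3, at 138 and 172 TPM (155 ± 24.4, SD, n = 2), and ranked 850 among protein-coding genes, with 96.0% of them at or below its mean. Foxf2, its paralog in mesenchyme, had 956 and 1462 counts, at 13.1 and 23.5 TPM. Pup 3 was the higher for both, and the Foxf1 level was 10.5 times that of Foxf2 in pup 1 and 7.31 times in pup 3. The FoxF subfamily held 32.1% ± 4.05 (SD, n = 2) of the family's TPM, the largest share of the 19 subfamilies in either pup.

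Foxf1 lies at chr8:121084386-121088144 in a cluster with Foxc2, 28.0 kb downstream, and Foxl1, a further 9.04 kb on, all on the plus strand. Its cluster partners were much lower. Foxc2, a regulator of lymphatic valves, had 0.41 and 0.51 TPM, so that Foxf1 stood 335-fold above it in pup 1 and 337-fold in pup 3. Foxl1, a target of Hedgehog signalling in mesenchyme, had 59 and 83 counts, and Foxf1 exceeded it 194-fold and 148-fold. On the other side of Foxf1, with a gap of 1.27 kb between the genes and on the minus strand, lies the noncoding gene Fendrr at chr8:121054882-121083110. Fendrr had 32.4 and 32.6 TPM, and the ratio of Foxf1 to Fendrr was 4.24 and 5.27. Of 6 noncoding neighbours listed, 4 were matched by name, all but Falcor and Foxd3os. Apart from Fendrr, those matched were under TPM 1 in both pups. Foxd2os had 0.55 and 0.39 TPM, Foxo6os 0.01 and 0, and Foxl2os 0 in both pups.

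A comparable cluster on chromosome 13 holds Foxq1, Foxf2 and Foxc1 on the plus strand, with gaps of 64.8 and 175 kb. Foxq1, a regulator of hair and of secretory epithelium in the stomach, had 3.19 and 3.70 TPM. In the annotation M21, 3200 of its exon bases overlap A530084C06Rik on the opposite strand (0.370 and 0.670 TPM). The Foxq1 transcript that was counted is 2653 bases long and has another length in M21, so the overlap within it is not known. Whether reads of the pair can be told apart is not known either, as the strand setting of the counting is not given. Foxc1, which acts in eye, heart and skeletal mesenchyme, had 0.49 and 0.56 TPM from 61 and 59 counts. Foxf2 was 4.10 and 6.36 times as high as Foxq1, and 26.7 and 42.0 times as high as Foxc1. In each cluster the FoxF member was the highest and the FoxC member lay under TPM 1. A further pair within 250 kb, Foxd2 and Foxe3 on chromosome 4, had no member above TPM 1.

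Most targets attributed to Foxf1 and most genes of the pathway upstream of it were at TPM 1 or more in both pups. So were 60.3% of all protein-coding genes, a share that also stands beside the lists of other members below. These lists were written with earlier results of these data known, and their counts do not measure the activity of any member. All 20 of the Foxf1 targets listed were at TPM 1 or more in both pups, led by Icam2, an endothelial adhesion molecule (289 and 251 TPM), Acta2, smooth muscle actin (287 and 252), and Esam, of endothelial junctions (225 and 230.1). Of 14 Hedgehog pathway genes 13 reached TPM 1, led by the decoy receptor Hhip (50.9 and 53.9 TPM), the co-receptor Gas1 (19.9 and 18.0) and the receptor Ptch1 (11.4 and 15.2). The ligand gene Ihh lay under TPM 1, at 0.14 and 0.08.

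Foxs1, a forkhead gene of pericytes and sensory neurons, was the only member of its subfamily and 1 of only 2 members with a single coding exon at TPM 1 or more in both pups. It had 453 and 324 counts, at 11.6 and 9.74 TPM (10.7 ± 1.3, SD, n = 2). The pericyte genes Pdgfrb (35.7 and 33.7 TPM) and Cspg4 (4.49 and 5.10 TPM) were also present.

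Of the Foxp repressors, 3 of 4 were present. Foxp1, needed with its paralogs for the airway and alveolar epithelium, had 9920 and 8195 counts, at 105 and 98.8 TPM (102 ± 4.46, SD, n = 2), second in the family. Foxp4 had 8.95 and 12.6 TPM and Foxp2 8.15 and 10.4 TPM, ranges that overlap. Foxp1 was 11.7 and 7.83 times as high as Foxp4. The deposited TPM of Foxp2 is uncertain, as the authors' posterior mean gives 11.0 TPM over the pups against 9.27 for the deposited TPM used here. Foxp3, which specifies regulatory T cells, was counted 5 times in pup 1 and once in pup 3, and shares 590 exon bases with Ccdc22 on the opposite strand, itself at 16.1 and 16.6 TPM. The regulatory T cell markers Cd3e, Il2ra and Ctla4 were under TPM 1 in both pups and Ikzf2 had 0.77 and 1.32 TPM.

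Corepressor partners of Foxp and Foxk proteins reached TPM 1 in both pups for 19 of 20, led by the histone chaperone Rbbp7 (168 and 176 TPM), the scaffold Sin3b (184 and 146) and Rbbp4 (139 and 159). The exception was Nfatc2, a partner of Foxp3, at 0.63 and 0.84 TPM. Foxk1 and Foxk2, which act on metabolism and autophagy and recruit Sin3, were low and close to each other. Foxk2 had 3.50 and 4.53 TPM and Foxk1 3.0 and 3.42, with Foxk2 the higher in each pup.

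Foxa2, which drives maturation of the respiratory epithelium, had 2088 and 1764 counts, at 33.1 and 32.7 TPM (32.9 ± 0.297, SD, n = 2). Foxa1, partly redundant with it, had 6.93 and 7.30 TPM. Foxa2 was 4.78 times as high as Foxa1 in pup 1 and 4.48 times in pup 3. Foxa3, the member best known from liver and gut, lay under TPM 1 with 27 and 33 counts. The liver markers Alb and Apoa1 were low too, at 2.77 and 1.87 TPM and at 3.28 and 1.95 TPM, and Ttr and Serpina1a were under TPM 1.

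All 14 genes listed as Foxa targets or partners in epithelium were at TPM 1 or more. They were led by the surfactant protein gene Sftpc, the club cell secretory gene Scgb1a1 at 23050 and 23372 TPM, and Scgb3a2 at 5022 and 6245. Spdef, a goblet cell factor, was the lowest, at 1.16 and 1.12 TPM.

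Foxj1, the regulator of motile cilia, had 2856 and 2749 counts, at 35.1 and 39.7 TPM (37.4 ± 3.25, SD, n = 2), and ranked 4 in the family. Its listed program was present in 19 of 23 genes, led by Tppp3, a tubulin-binding protein (614 and 599 TPM), Dynlrb2, a dynein light chain (125 and 129), and Cfap126 (28.4 and 29.6). Of the regulators that precede Foxj1 in multiciliated cells, Gmnc was under TPM 1, at 0.07 and 0.19 TPM, and Mcidas had 0.99 and 1.36. Ccno had 5.09 and 5.45 TPM, Myb 3.91 and 4.63, and Trp73 1.53 and 2.29. Foxj3 had 8.92 and 10.3 TPM and Foxj2 4.86 and 5.42 TPM, so that the broadly expressed FoxJ members were lower than Foxj1 in each pup.

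Of the Foxo factors, which respond to insulin and growth factors, 3 of 4 reached TPM 1 in both pups. Foxo3 had 3787 and 2344 counts, at 20.1 and 13.5 TPM (16.8 ± 4.68, SD, n = 2). Foxo1 had 6.02 and 6.74 TPM, and Foxo4 2.59 and 2.72. Foxo3 was the highest of them in each pup, 3.34 and 2.00 times Foxo1. Foxo6, known from brain, had 9 and 16 counts. Foxo1 and the antisense gene Gm20402 (4.14 and 4.83 TPM) share 674 exon bases. Whether their reads can be told apart there is not known, as the strand setting of the counting is not given in the sources used here.

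The kinases, receptors and adaptors that regulate Foxo proteins were at TPM 1 or more for 20 of 20. The highest were the phosphoserine-binding adaptors Ywhaz (414 and 454 TPM), Ywhae (399 and 441) and Ywhab (231 and 261). Of 29 Foxo targets 25 reached TPM 1 in both pups, led by Txnip, an inhibitor of glucose uptake (444 and 415), Map1lc3b, an autophagy protein (382 and 351), and the cell cycle inhibitor Cdkn1a (186 and 112). Targets known from liver were low. Pck1 had 0.07 and 0.09 TPM, G6pc 0.07 and 0.02, and Igfbp1 0.61 and 0.20.

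Foxm1, the forkhead factor of dividing cells, was the lowest member at TPM 1 or more in both pups, at 1.16 and 1.79 TPM from 150 and 182 counts. All 18 of its listed targets were at TPM 1 or more, led by the cyclin-dependent kinase subunit Cks1b (73.0 and 66.8 TPM), the mitotic kinase Cdk1 (40.4 and 40.3) and the phosphatase Cdc25b (34.1 and 32.2). The lowest of the 18 was the checkpoint kinase Bub1, at 1.25 and 2.28 TPM, which lies within the deposited bounds of Foxm1, 1.13 to 1.89 TPM in pup 1 and 1.66 to 2.66 in pup 3.

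Foxn3, a repressor with roles in cell cycle checkpoints, ranked 3 in the family at 87.4 and 83.4 TPM (85.4 ± 2.83, SD, n = 2) from 4750 and 4085 counts. Foxn2 had 11.9 and 13.1 TPM. Foxn4, known from retina and spinal cord, lay just under the line at 0.71 and 0.65 TPM. Foxn1, the regulator of thymic epithelium, was counted once in pup 1 and never in pup 3. Of the thymic markers, Psmb11 had 0.03 TPM and 0, while Dll4 (20.0 and 22.9 TPM), also a gene of endothelial tip cells, and Ccl25 (2.37 and 2.70) were present, and Prss16 had 0.57 and 1.07.

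**Figure D2:**
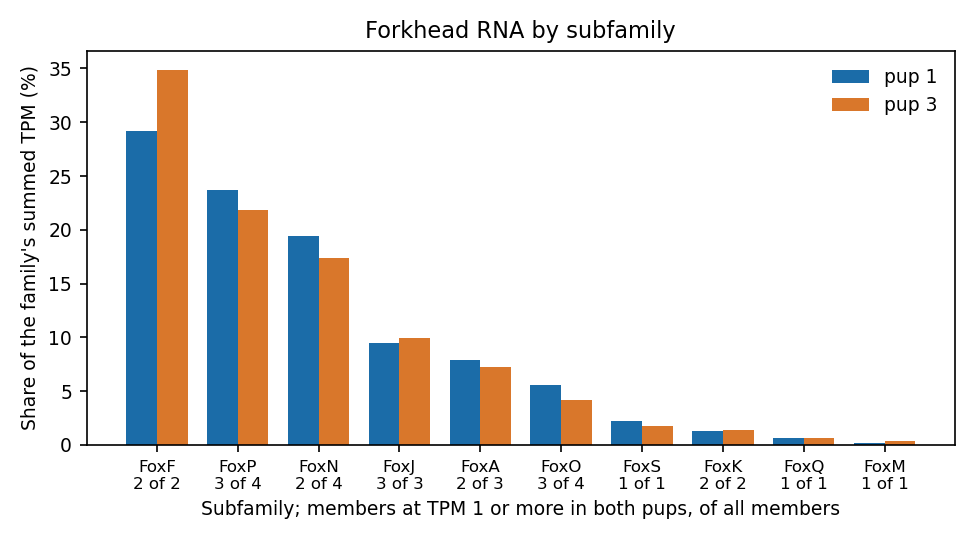
Share of the family's summed TPM (percent, linear axis from 0) held by the 10 highest subfamilies, in pup 1 (blue) and pup 3 (orange), with the number of members at TPM 1 or more in both pups below each name. FoxF holds 29.2% and 34.9%, and FoxP and FoxN follow.

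In the order of mean TPM, the ranges of neighbours did not overlap from Foxf1 through Foxp1, Foxn3, Foxj1 and Foxa2 to Foxf2. Below that, neighbours that did not differ beyond the spread of the pups were Foxf2 and Foxo3, each gene and the next in the series Foxn2, Foxp4, Foxs1, Foxj3 and Foxp2, Foxk2 and Foxq1, Foxq1 and Foxk1, and Foxm1 and Foxl1. With 2 pups such a range is a narrow measure of spread.

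Of the 23 members under TPM 1 in both pups, 9 had more than 3 counts in a pup: Foxn4, Foxa3, Foxc1, Foxc2, Foxd4, Foxo6, Foxd1, Foxd2 and Foxp3. Another 6 had 3 or fewer in each pup, among them Foxd3, Foxe1, Foxh1, Foxn1 and Foxr2. No count was recorded in either pup for 8: Foxb1, Foxb2, Foxe3, Foxi1, Foxi2, Foxi3, Foxl2 and Foxr1. A count of 0 allows up to 3 counts, or 0.0711 CPM (counts scaled to the library total) in pup 1 and 0.0810 in pup 3, for counting error only. Such a limit does not show absence from a rare cell type.

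Several of these genes are known from organs other than the lung. Foxb1 and Foxo6 act in the brain, and the neural genes Elavl3, Neurod1 and Tubb3 were under TPM 1 in both pups, although Stmn2 had 45.0 and 48.9 TPM. Foxl2 acts in the ovary, for which no somatic cell markers were listed. The germ cell genes Ddx4, Dazl and Sycp3 summed to 0.150 and 0.260 TPM. Foxi1 defines ionocytes, the chloride-handling cells of airway and kidney. Of the ionocyte markers, Ascl3 and Atp6v1g3 were under TPM 1, while Cftr (6.62 and 5.60 TPM) and Atp6v0d2 (6.85 and 9.18) were present. Foxe1 acts in thyroid and oral epithelium, and of 5 genes of stratified epithelium only Krt4 reached TPM 1, at 2.55 and 2.26, with Krt13, Krt1, Trp63 and Krt5 below.

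The share of members at TPM 1 or more in both pups differed with coding exons, in the same direction as over all protein-coding genes. Of the 16 members with 1 coding exon, 2 (12.5%), Foxs1 and Foxq1, reached TPM 1 in both pups, against 18 of 28 (64.3%) with several coding exons. Over all protein-coding genes the shares were 22.8% of 3233 and 67.0% of 18195. The median gene span was 2.76 kb in the single-exon members and 20.0 kb in the rest. This grouping was chosen after the levels had been seen, and exons were counted on the annotation M21, later than the M4 of the tables.

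**Figure D3:**
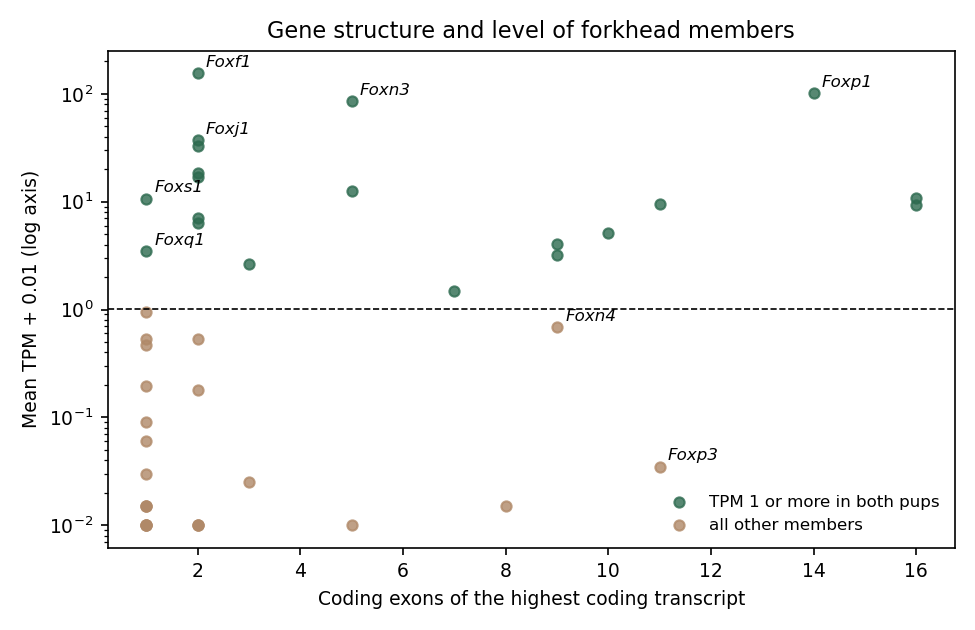
Coding exons of each member's leading coding transcript against its mean TPM over both pups plus 0.01, on a log axis, for all 44 members, with a dashed line at TPM 1. Members at TPM 1 or more in both pups (green) include 2 with a single coding exon, Foxs1 and Foxq1.

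Isoform estimates divide a gene's TPM between its annotated transcripts. Of the 20 members at TPM 1 or more in both pups, 8 have 1 transcript in the tables: Foxf1, Foxj1, Foxf2, Foxs1, Foxa1, Foxo1, Foxq1 and Foxk1. The same transcript led in both pups for 19 of the 20, and it held over 50% in both pups for 15. The exception was Foxn3, with Foxn3-201 ahead in pup 1 (32.2%) and Foxn3-205 in pup 3 (32.3%).

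Whether a transcript encodes the recognition helix was read from its coding sequence, for transcripts of the protein-coding type in M21. Transcripts of other types, or absent from M21, were counted as without it. Such transcripts held over 95% of TPM in both pups for 11 of the 20 members. In Foxp1 they held 70.5% and 71.6%, that is 74.1 and 70.8 TPM, in 11 of 32 annotated transcripts. In Foxp2 the share was the lowest, 52.9% and 50.7%. It depends on the estimate. The leading transcript, Foxp2-207, held 50.1% over the pups, 39.4% by posterior mean and 67.6% among protein-coding transcripts alone. The coding transcript Foxp2-203, which lacks the helix, held 21.9% and 22.6%, and transcripts with a retained intron held 18.2% and 23.3%. Retained introns were also at 7.71% and 17.4% in Foxp4 and at 8.62% and 16.2% in Foxm1. The shares were higher in pup 3 in these 3 genes and lower in pup 3 in Foxp1 (7.70% and 6.75%) and Foxn3 (7.51% and 4.38%). In Foxj3 they were 10.4% and 10.7%, in Foxn2 6.37% and 6.78%, and in Foxk2 0 and 2.21%. Some of these classes rest on few reads, for example 5.84 and 10.6 counts for Foxp4-206, while Foxp2-213, with a retained intron, had 89.7 and 114. Total RNA also holds transcripts that are not fully spliced.

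The division between transcripts of Foxo3 also differed between the pups. Its full-length transcript Foxo3-203 held 83.6% in pup 1 and 92.5% in pup 3. Foxo3-202, of 1316 bases and without the helix, had 3.30 and 0.99 TPM from 129.6 and 33.1 counts. Foxp4 also divided its TPM differently. Foxp4-202 held 61.0% in pup 1 and 39.7% in pup 3, while Foxp4-201 held 4.96% and 15.6%.

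The TPM of Foxn3 rests partly on short models. Transcripts under 1000 bases held 44.2% and 40.5% of its TPM but 9.44% and 8.96% of its counts. Foxn3-205 is 566 bases long in the tables and 696 in M21, and had 27.1 and 26.9 TPM from 408 and 345 counts. Only the longer model was searched for helix codons, and the helix-coding level of Foxn3, 75.7 and 76.2 TPM, is 48.6 and 49.2 TPM without it. Over transcripts of at least 1000 bases, Foxn3 had 48.8 and 49.6 TPM, still above Foxj1, and Foxp1 had 84.8 and 78.7.

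**Figure D4:**
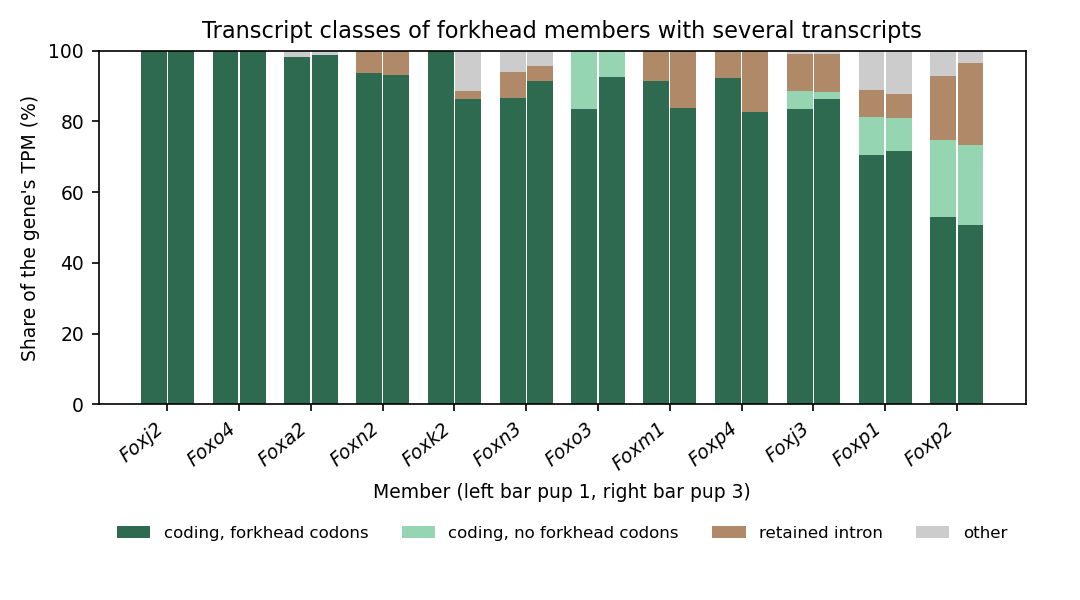
Share of each gene's TPM (percent) held by transcript classes, left bar pup 1 and right bar pup 3, for the 12 members at TPM 1 or more in both pups that have several transcripts. Coding transcripts that hold the recognition helix (dark green) take from 50.7% in Foxp2 in pup 3 to all of the TPM in Foxj2.

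Start sites are shown for Foxa2 and Foxp1 because their transcripts divide between promoters. Sequences are from RefSeq on GRCm38.p6, where windows of 300 bases around a start were found for 28 of the 44 members. The lines give the bases before the start that lie outside annotated exons, 5′ to 3′ on the minus strand, with each CpG in capitals. The windows are chr2:148045949-148046198 and chr2:148046970-148047219 for Foxa2, and chr6:99028314-99028548 and chr6:99266533-99266765 for Foxp1.
Foxa2, start of Foxa2-202: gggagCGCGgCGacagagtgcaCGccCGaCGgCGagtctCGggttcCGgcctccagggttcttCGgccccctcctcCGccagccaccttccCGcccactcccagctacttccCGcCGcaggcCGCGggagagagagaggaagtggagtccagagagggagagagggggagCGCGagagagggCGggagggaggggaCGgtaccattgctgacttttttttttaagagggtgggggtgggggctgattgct
Foxa2, start of Foxa2-201: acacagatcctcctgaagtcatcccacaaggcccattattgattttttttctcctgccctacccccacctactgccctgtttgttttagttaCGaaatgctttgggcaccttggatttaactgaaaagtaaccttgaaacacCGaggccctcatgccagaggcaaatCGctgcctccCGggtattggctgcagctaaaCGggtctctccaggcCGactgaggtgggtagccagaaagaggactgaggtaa
Foxp1, start of Foxp1-225: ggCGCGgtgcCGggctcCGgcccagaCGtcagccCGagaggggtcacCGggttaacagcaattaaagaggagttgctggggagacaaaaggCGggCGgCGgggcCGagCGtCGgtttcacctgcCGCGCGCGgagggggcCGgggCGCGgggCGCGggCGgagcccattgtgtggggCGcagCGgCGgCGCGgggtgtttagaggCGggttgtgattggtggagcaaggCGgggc
Foxp1, start of Foxp1-206: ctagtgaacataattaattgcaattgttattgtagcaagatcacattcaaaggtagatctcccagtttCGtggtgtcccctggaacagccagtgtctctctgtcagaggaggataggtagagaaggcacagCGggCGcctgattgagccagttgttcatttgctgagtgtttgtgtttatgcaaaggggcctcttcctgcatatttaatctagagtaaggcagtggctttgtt
The Foxa2-202 start, with 20 CpG in the line shown, held 86.9% of the gene's TPM in pup 1 and 84.5% in pup 3. The Foxa2-201 start, with 6, held 11.2% and 14.4%. Transcripts from the Foxp1-225 start, with 30 CpG, had 40.8 and 37.0 TPM, or 38.8% and 37.4% of the gene. Those from the Foxp1-206 start, with 3 CpG, had 22.2 and 17.7 TPM, or 21.1% and 17.9%. RNA did not follow CpG number over all windows of these genes. The remaining window of Foxa2, at Foxa2-203 and with 13 CpG before the start, held 1.87% and 1.10%. That of Foxp1, the farthest upstream and with 6 CpG in only 81 bases outside exons, held 0.713% and 0.243%. The rest of the Foxp1 TPM lay in transcripts not assigned to any of these windows.

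For each member with a window, 1 window was kept: that with the highest TPM near its start or, at equal TPM, the most CpG. The median was 33.0 CpG (range 6 to 59) in the 11 at TPM 1 or more in both pups and 15.0 (3 to 32) in the 17 under TPM 1. All 32851 RefSeq windows, taken without this choice and with several for some genes, had a median of 7.0, so the sets were not chosen alike. A CpG ratio, observed over expected, above 0.6 was found in 90.9% of the 11, 58.8% of the 17 and 35.8% of all windows. The forkhead motif TGTTTAC, searched on both strands as TGTTTAC and GTAAACA, occurred in 1 of the 11 windows, that of Foxa1, in none of the 17, and in 3.65% of all windows. Of the 11 windows, that of Foxn3 lies at a start that held 0.149% and 0.444% of its TPM, and that of Foxj2 has no transcript of the tables starting near it.

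Between the pups, libraries were scaled by TMM and compared by size, since each pup has 1 library. A gene counted as different at 2-fold or more, with 50 counts or more over both libraries and a 95% interval of the ratio, for counting error only, that leaves out 1. No member of the 25 with enough counts met this rule, where 1.40% of 15790 genes did, 104 (0.659%) higher in pup 1 and 117 (0.741%) higher in pup 3. Scaling by spike-in RNA gave 161 and 82 genes and moved all ratios up by 0.14 on the log2 scale. Without the 2-fold minimum the interval left out 1 for 13 of the 25 members, beside 46.2% of all genes. Of the 13, 5 were higher in pup 1 (24.6% of all genes) and 8 in pup 3 (21.6%).

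Foxf2 lay farthest apart, with 956 and 1462 counts, 1.69-fold higher in pup 3 (1.56 to 1.84). Foxo3 went the other way, with 3787 and 2344 counts, 1.46-fold higher in pup 1 (1.38 to 1.54). Among genes with 1000 counts or more, 0.494% were at least as far apart as Foxf2 and 1.62% as far as Foxo3. Each was the farthest of the tested members in its direction, a choice that these shares do not allow for. Foxl1 and Foxm1 were also higher in pup 3, 1.56-fold (1.10 to 2.21) and 1.34-fold (1.08 to 1.68). Foxf1 was 1.18-fold higher in pup 3 (1.15 to 1.21), and Foxs1 1.26-fold higher in pup 1 (1.09 to 1.46). These were the directions under each of the 4 scalings tried, while the intervals given are for TMM alone. Spike-in scaling turned 8 members from higher in pup 3 to higher in pup 1: Foxj1, Foxj2, Foxn2, Foxq1, Foxk1, Foxk2, Foxo1 and Foxc1. Of these, Foxj1 alone had a TMM interval that left out 1, at 1.01 to 1.12-fold higher in pup 3. The fibroblast gene Pdgfra had 10.7 and 12.8 TPM and Tcf21 671 and 625 TPM. Their part in the Foxf2 difference was not tested.

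Of the 25 members, 17 had the higher scaled count in pup 3 and the median log2 ratio of pup 1 over pup 3 was −0.09, beside 49.0% of all genes and a median of 0.01. With spike-in scaling 9 of 25 were higher in pup 3, with a median of 0.05, beside 3941 of 15790 genes and a median of 0.15. None of the genes in the 8 pathway lists met the size rule. The Foxm1 targets had a median log2 ratio of −0.32, with 16 of 18 higher in pup 3, and the Foxj1 program −0.28, with 18 of 22 (−0.18 and −0.14 with spike-in scaling). The medians were 0.12 for Foxo targets, 0.08 for Foxa targets, 0.02 for Foxf1 targets, −0.04 for Foxp and Foxk partners, −0.08 for the Hedgehog pathway and −0.09 for Foxo regulators. The last 3 turned positive with spike-in scaling, and the Foxf1 target median turned to −0.02 with total counts.

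**Figure D5:**
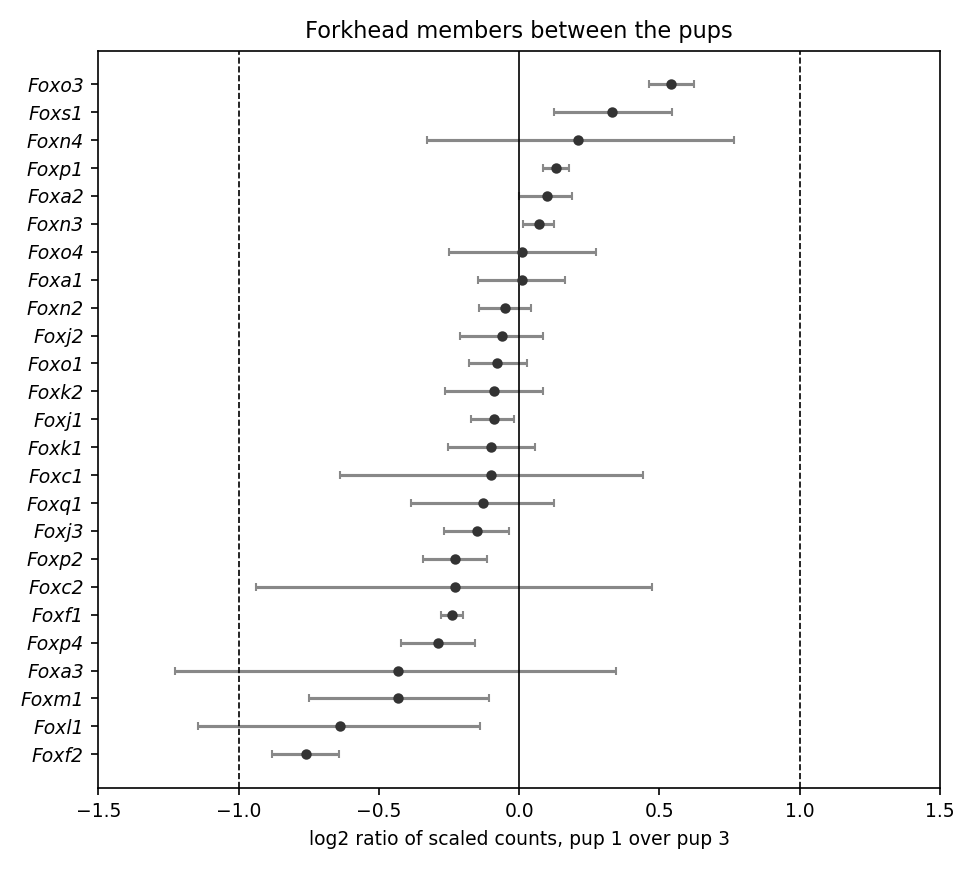
Log2 ratio of TMM-scaled counts, pup 1 over pup 3, for the 25 members with 50 counts or more, with 95% intervals for counting error only and dashed lines at 2-fold. Points right of 0 are higher in pup 1; Foxo3 lies farthest right and Foxf2 farthest left, at −0.76.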

How the data were processed

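Total RNA-seq of lung was analysed in 2 libraries, 1 per pup, from 10 ng of RNA over 200 nt. The deposited gene and transcript tables give expected counts, in which reads shared by features are split. They also give deposited TPM (per effective length, scaled to a total), deposited FPKM, and a deposited isoform percent, per the file headers. The assembly is mm10 and the annotation M4, per the deposited text files; for the aligner, counter and strand setting, nothing was given in the sources used here. No columns of other samples were used.

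TMM factors (edgeR 4.0.16 in R 4.3.3) were applied to whole-number counts obtained by rounding, with DESeq2 1.42.0 size factors, total counts and spike-in counts as alternatives and a prior of 0.5. Ratio intervals are exact conditional binomial (scipy 1.17.1). No p-value was computed. The size rule was tested on simulated data. Depth is given in the report; intervals and floors cover counting error only. Gene models, exons and codons came from GENCODE M21 (GRCm38), in which 42462 of 43346 genes matched; 125 of 150 member transcripts had the same length in M21, so helix and start-site calls for the rest are approximate. Start-site TPM sums transcripts starting within 100 bases. The helix was read from codons with a wider pattern than planned, because protein sequences were not used here.

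Members are named, except that 1 member and the helix codons of some others are not reported here; from each list of other genes, the 3 highest and any gene under TPM 1 in both pups, with a few others named after their values were seen. The members and lists were chosen with earlier results of these data known. The 8 pathway lists and the marker lists are described by counts, levels and medians only. Alternatives included posterior mean values as deposited, other thresholds and each pup alone.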

Additional observations from a re-analysis of the deposited data

How the results depend on the processing

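The summed TPM of the family, 537, was 405 as FPKM and 622 when rescaled over nuclear protein-coding genes. The FoxF share, 32.1%, was 27.0% by expected counts, which are not divided by length. The median log2(TPM + 1), 0.68, was −0.52 with a pseudocount of 0.1 and 3.40 without members under TPM 1, and ranged from 0.67 to 0.71 with either pup left out. The number of genes past the size rule, 221, was 590 at 10 counts or more, 701 with no count minimum and 799 at 1.5-fold, where 2 members passed, Foxf2 and Foxl1. Spike-in scaling, which moves all log2 ratios up by 0.14, changed the sign of 8 members; of these only Foxj1, at 0.05, had an interval that left out 1 under TMM. The other 27 recomputed values of these summaries stayed within the spread of the pups, or within 1.5 times for counts. Of the values of single members, 211 stayed and 61 moved, and of the other subfamily shares 20 stayed and 5 moved. Many of those that stayed could not move. Leaving out a pup cannot shift a mean TPM or share beyond the SD of the pups, and shares by FPKM equal those by TPM. The 5 shares that moved were those by expected counts. Depth limits those members under TPM 1 where a few counts set the level. Foxn4 (67 and 52 counts), Foxc1 (61 and 59), Foxc2 (35 and 37) and Foxa3 (27 and 33) rest on more. No paired analysis was possible because there is 1 group.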
